A study of Homo sapiens with 4 samples.

Results

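Transcription factors that drive epithelial-to-mesenchymal transition (EMT) were examined in prostate cancer cell lines carrying a miR-410 or a control construct. They comprised 7 genes of the SNAI, ZEB, TWIST and PRRX1 families, each measured by 1 probe set, out of 17687 named genes. The probe sets were chosen by gene symbol alone. RNA was hybridised to 4 Clariom S arrays with the titles C42B miR-410, C42B miR-CON, PC3 miR-410 and PC3 miR-CON, and no condition was repeated. C42B is a castration-resistant derivative of the androgen-responsive line LNCaP, and PC3 is an androgen-independent line from a bone metastasis. Cells were transfected with a plasmid in which a CMV promoter drove either human pre-miR-410 with a GFP reporter or a scrambled sequence, and stable cells of both kinds were kept under puromycin. Values are log2 units after Robust Multi-array Average (RMA) normalization, and a difference of 1 is a 2-fold difference.

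EMT is a developmental program in which epithelial cells lose their junctions and polarity and become motile. SNAI and ZEB proteins are zinc finger repressors that bind E-box sequences in promoters of epithelial genes such as CDH1, which encodes E-cadherin. TWIST proteins are basic helix-loop-helix factors that act as dimers with E proteins, and PRRX1 is a homeobox factor of mesenchyme. In prostate cancer these factors are studied for their part in invasion and metastasis. The microRNA carried by the construct is shown here because its seed, the stretch in capitals (bases 2 to 8), is what pairs with target messages. The sequence is that of RefSeq, on chromosome 14 of GRCh38.p14 at positions 101065961 to 101065981 of the plus strand.
hsa-miR-410-3p: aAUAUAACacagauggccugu

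The line labels did not match the marker genes. Of 12 measured markers of the LNCaP lineage, 9 were lower and 0 higher on the arrays titled C42B than on those titled PC3. PC3 markers ran the other way, with 14 of 15 measured higher on the arrays titled C42B and 0 lower. Over all genes, 11.7% were called higher and 14.1% lower on those arrays. In addition, the genotype and description fields of the arrays titled PC3 name the opposite construct to the titles. Array names below are titles, and the sign of every construct difference between the PC3 arrays turns if the other fields are followed. The study's own list of changed genes runs against the titles for the construct in both pairs, and gives each pair under the other line's name. Medians over all probe sets were 6.35, 6.39, 6.34 and 6.36 on the arrays titled C42B miR-410, C42B miR-CON, PC3 miR-410 and PC3 miR-CON.

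ZEB1, a repressor of CDH1 and of other epithelial genes, was the factor that set the lines apart most. Its RMA values were 10.50 and 10.11 in the C42B miR-410 and C42B miR-CON arrays, against 3.09 and 3.13 in the PC3 miR-410 and PC3 miR-CON arrays. Both arrays titled C42B were high and both arrays titled PC3 were low, with a gap of 6.98 between the nearest values. The mean difference of RMA values was 7.19 ± 0.20 (log2, SE, 2 arrays per line; limma adjusted p = 9.1e-05). On the arrays titled PC3 miR-410 and PC3 miR-CON, only 7.65% and 7.86% of all probe set values were lower than that of ZEB1. RMA values carry no detection call, so whether ZEB1 was above background there is not known and its difference is not given as a fold. ZEB1 messages per cell and the share of cells that express ZEB1 cannot be told apart in RNA of whole cultures.

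**Figure D1:**
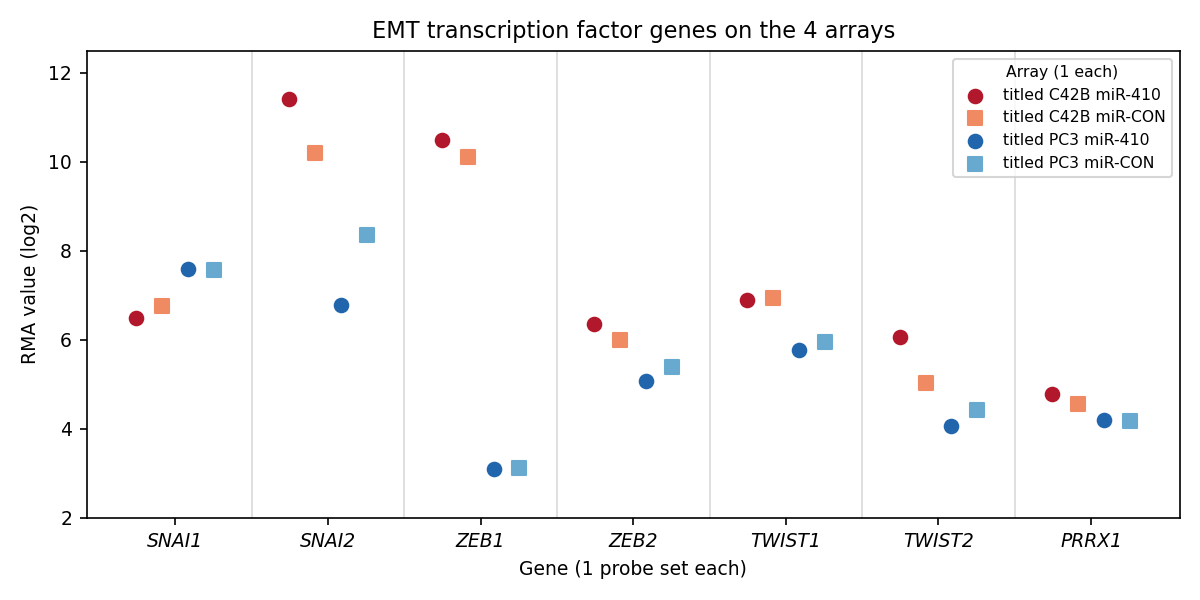
RMA value (log2, vertical axis) of each EMT transcription factor gene (horizontal axis) on the 4 arrays, 1 point per array, with the arrays titled C42B left of those titled PC3. ZEB1 lies above 10 on both arrays titled C42B and near 3.1 on both arrays titled PC3, and SNAI1 is the only gene with lower values on the arrays titled C42B.

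ZEB2, the paralog of ZEB1, differed far less. It had values of 6.37 and 6.00 in the C42B miR-410 and C42B miR-CON arrays, and of 5.07 and 5.39 in the PC3 miR-410 and PC3 miR-CON arrays. The arrays titled C42B were again higher, by 0.96 ± 0.21 (log2, SE), a 1.94-fold difference (limma adjusted p = 0.026). Without the array titled PC3 miR-410 the difference was 0.80 (limma adjusted p = 0.15), and it also lost the call without PC3 miR-CON (adjusted p = 0.062) or C42B miR-410 (adjusted p = 0.053).

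ZEB1 and ZEB2 messages are known targets of the miR-200 family and of miR-205, which the ZEB proteins in turn repress. The mature microRNAs of the family were not measured on these arrays. Their sequences are printed with the seed in capitals because the 5 members of the miR-200 family fall into groups of 3 and 2 by seed. Neither these seeds nor that of miR-205-5p is the seed of miR-410-3p. All are from RefSeq (GRCh38.p14).
hsa-miR-200b-3p: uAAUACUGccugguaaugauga
hsa-miR-200c-3p: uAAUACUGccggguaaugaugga
hsa-miR-429: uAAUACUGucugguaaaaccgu
hsa-miR-200a-3p: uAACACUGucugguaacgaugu
hsa-miR-141-3p: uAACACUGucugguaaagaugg
hsa-miR-205-5p: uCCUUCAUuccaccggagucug

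SNAI2, which encodes Slug, was the factor with the next largest difference and varied most between constructs. Its values were 11.42 on the array titled C42B miR-410 and 10.19 on C42B miR-CON, against 6.79 on PC3 miR-410 and 8.35 on PC3 miR-CON. Both C42B arrays lay above both PC3 arrays, and within each line the constructs were more than 2-fold apart. The mean difference between lines was 3.23 ± 0.61 (log2, SE), a 9.40-fold higher level on the arrays titled C42B (limma adjusted p = 0.016). This SE was the largest of the 7 factors. The difference was 2.45 without the array titled PC3 miR-410, 2.62 without C42B miR-410, 3.85 without C42B miR-CON and 4.01 without PC3 miR-CON, with limma adjusted p between 0.0047 and 0.040.

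SNAI1, which encodes Snail, ran the other way. It had values of 6.50 and 6.76 in the C42B miR-410 and C42B miR-CON arrays, and of 7.60 and 7.57 in the PC3 miR-410 and PC3 miR-CON arrays. SNAI1 was thus lower on the arrays titled C42B, with a difference of -0.95 ± 0.18 (log2, SE; limma adjusted p = 0.014), the opposite direction to its paralog SNAI2. The call was lost without either array titled PC3, at adjusted p = 0.091 without PC3 miR-410 and 0.080 without PC3 miR-CON, while the difference stayed between -1.08 and -0.82 when any array was left out.

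TWIST1, a factor of cranial mesoderm and of metastasis, had values of 6.90 and 6.94 in the C42B miR-410 and C42B miR-CON arrays, against 5.78 and 5.95 on PC3 miR-410 and PC3 miR-CON. It was 2.08-fold higher on the arrays titled C42B, a difference of 1.05 ± 0.17 (log2, SE; limma adjusted p = 0.0086), and missed the threshold without the array titled PC3 miR-410 (adjusted p = 0.072). TWIST2, which acts in dermis and bone, had values of 6.06 and 5.02 in the C42B miR-410 and C42B miR-CON arrays, and of 4.06 and 4.42 on PC3 miR-410 and PC3 miR-CON. Its difference of 1.30 ± 0.37 (log2, SE) did not pass the test (limma adjusted p = 0.051), although its values did not overlap between lines. Without the array titled C42B miR-CON, the nearer of the 2 to the arrays titled PC3, the difference was 1.82 (adjusted p = 0.0061). It was 0.78 (adjusted p = 0.060) without C42B miR-410, 1.12 (adjusted p = 0.18) without PC3 miR-410 and 1.48 (adjusted p = 0.088) without PC3 miR-CON.

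PRRX1 had values of 4.79 and 4.56 in the C42B miR-410 and C42B miR-CON arrays, and of 4.20 and 4.18 on PC3 miR-410 and PC3 miR-CON. Its difference of 0.49 ± 0.17 (log2, SE) did not pass the test (limma adjusted p = 0.095). All 4 values lay below the median of their array, where 20.5% to 28.8% of probe set values were lower.

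Of the 7 factors, 4 passed the test as higher in C42B arrays by title and 1 as lower. Over all genes tested, 11.7% were called higher and 14.1% lower in that comparison. Values of 6 factors did not overlap and were higher on the arrays titled C42B, and those of 1 factor were lower, against 29.4% and 35.2% of all genes. The median difference of the 7 factors was 1.05, and that of all genes was -0.03. The 2 arrays of a line differ in construct, so the spread behind these tests includes the construct difference, and separate cultures of the same line and construct were not measured. An exact permutation test of 2 arrays against 2 cannot go below p = 0.333 (two-sided).

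**Figure D2:**
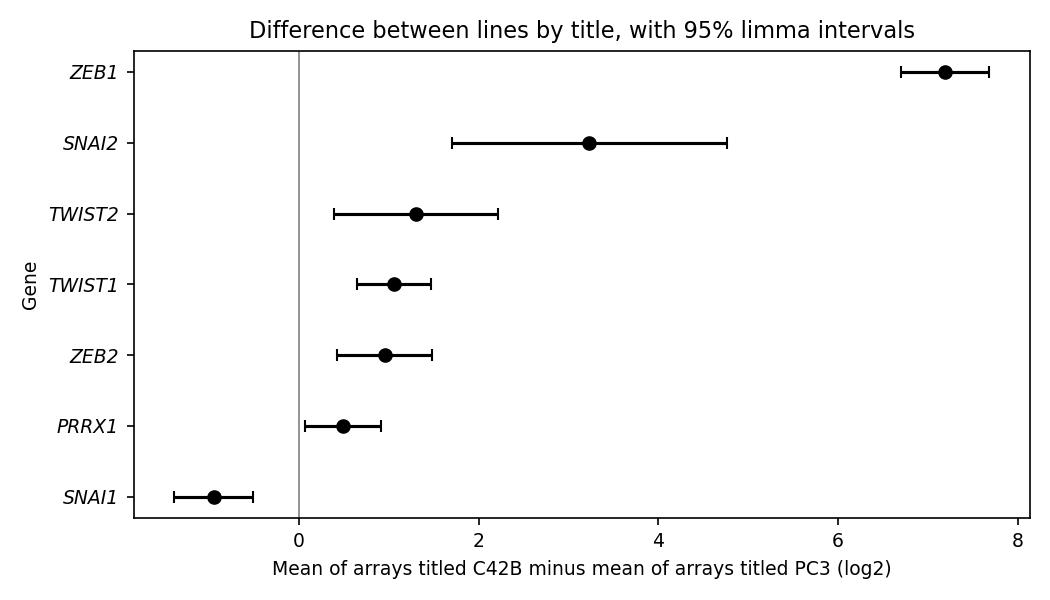
Difference between lines for each EMT factor, as the mean of the arrays titled C42B minus the mean of the arrays titled PC3 (log2, horizontal axis), with 95% limma intervals as bars (2 arrays per line, not adjusted for the number of genes). The interval of ZEB1 runs from 6.71 to 7.68, that of SNAI2 from 1.70 to 4.76, and that of SNAI1 from -1.39 to -0.52.

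Within the arrays titled C42B, SNAI2 and TWIST2 were the factors that differed most between constructs. SNAI2 was 2.34-fold higher on the array titled miR-410 than on the array titled miR-CON, a difference of 1.23, and 2.14% of all genes had a larger absolute difference. TWIST2 was 2.06-fold higher, a difference of 1.04, and 3.19% of genes had a larger one. Its values there lay below the array medians, with 46.2% and 30.1% of probe set values lower on the miR-410 and miR-CON arrays. ZEB1 (0.39), ZEB2 (0.36) and PRRX1 (0.23) were also above 0, and TWIST1 (-0.04) and SNAI1 (-0.26) were below it. The median absolute difference over all genes was 0.24 in this pair, so PRRX1 and TWIST1 lay under it and SNAI1 just over it. Past 2-fold, 2 of the 7 factors were higher and 0 lower, against 1.35% and 2.26% of all genes. There is 1 array per construct, so no test could be made.

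Within the arrays titled PC3, SNAI2 alone among the factors passed 2-fold, and in the opposite direction by title. Its value on the array titled miR-410 was 0.34 times that on the array titled miR-CON, a difference of -1.56, and only 0.322% of all genes had a larger absolute difference. TWIST2 (-0.36), ZEB2 (-0.31) and TWIST1 (-0.17) were below 0 as well. ZEB1 (-0.04), SNAI1 (0.03) and PRRX1 (0.02) lay within 0.16 of 0, the median absolute difference over all genes in this pair. Past 2-fold, 1 of the 7 factors was lower and 0 higher, against 0.656% and 0.441% of all genes. By the genotype and description fields these signs turn, and SNAI2 is then 1.56 higher, TWIST2 0.36 higher and ZEB2 0.31 higher with miR-410, as on the arrays titled C42B.

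**Figure D3:**
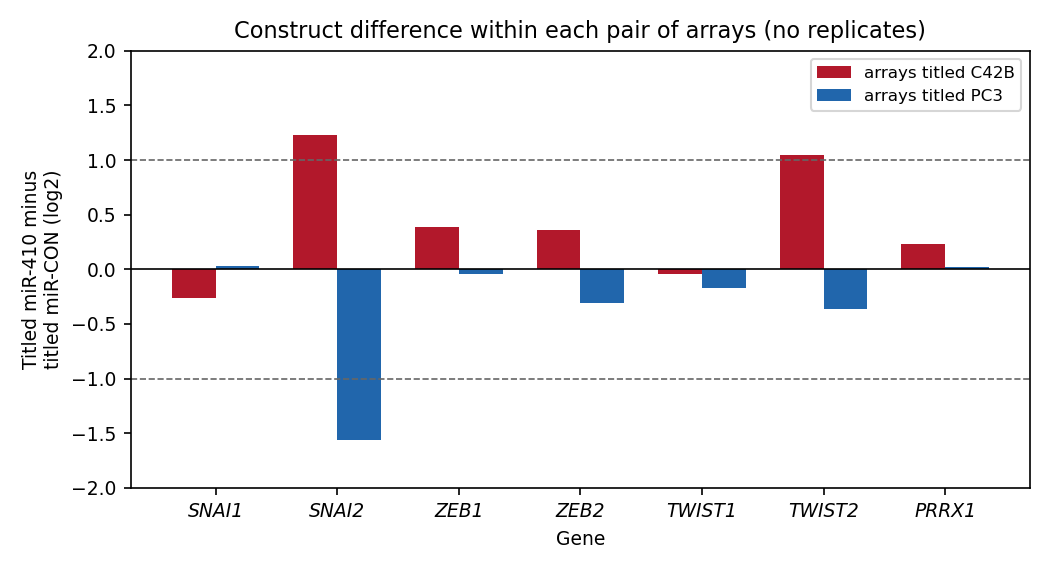
Construct difference of each EMT factor within the pair of arrays titled C42B (red) and the pair titled PC3 (blue), as miR-410 less miR-CON by title (log2, vertical axis), with dashed lines at 2-fold and no replicates. SNAI2 was at 1.23 and -1.56 in the 2 pairs, and TWIST2 at 1.04 and -0.36.

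Genes whose profile over the 4 arrays lay nearest to each factor were found by the root mean square (RMS) difference of values centred on each gene's mean. For SNAI2 the nearest was SAMD9, an interferon-induced antiviral gene, with an RMS difference of 0.099. SAMD9 had values of 9.22 and 8.10 in the C42B miR-410 and C42B miR-CON arrays, against 4.47 and 6.28 on PC3 miR-410 and PC3 miR-CON, and so shared the opposite construct differences of SNAI2. LINGO2 (0.18) and SP140L (0.30) came next. For ZEB1 the nearest were B3GNT5, a glycosyltransferase gene (0.15), SLCO1B3, an organic anion transporter gene (0.19), and FOSL1 (0.19), which encodes the AP-1 subunit FRA1. For TWIST2 they were BACH2 (0.038), FKBP7 (0.069) and GAB3 (0.075). ZEB2 was nearest to MICAL2 (0.016), ALCAM (0.033) and ZMYM3 (0.035), TWIST1 to GPATCH8 (0.027), LMAN2L (0.035) and ZNF878 (0.036), and SNAI1 to MYBBP1A (0.012), TRUB1 (0.017) and DMTN (0.019). These are descriptions over 4 arrays.

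Other transcription factors linked to EMT differed between lines in both directions. Of 14 measured, 5 were higher on the arrays titled C42B, 3 were lower and 6 did not pass. The shares over all genes were 11.7% higher and 14.1% lower. The median difference of the 14 was 0.36. The 3 highest were FOSL1 (6.89 ± 0.16, log2, SE), RUNX2, a factor of bone formation (5.20 ± 0.52), and ETS1 (4.74 ± 0.23). The other 2 called higher were the chromatin protein gene HMGA2 and SOX9. The 3 called lower were LEF1, a Wnt effector (-1.14 ± 0.24), TBX3 (-1.10 ± 0.21) and GSC, a homeobox factor of gastrulation (-0.88 ± 0.16). RUNX2 was also the only one past 2-fold between constructs, with 10.41 on the array titled C42B miR-410 and 9.06 on C42B miR-CON. On the arrays titled PC3 miR-410 and PC3 miR-CON it had 5.01 and 4.06, a difference of 0.95. On PC3 miR-CON 19.0% of values were lower, and whether RUNX2 was above background there is not known.

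Among the 9 helix-loop-helix partners and inhibitors of TWIST, 2 were higher on the arrays titled C42B and 0 were lower, where 11.7% and 14.1% of all genes were, so the count says little about the list. TCF4, an E protein that pairs with TWIST, was higher by 1.25 ± 0.23 (log2, SE), and ID1, an inhibitor of E proteins, by 2.14 ± 0.43. Between constructs, ID3 and ID1 both passed 2-fold in the C42B pair, where 1.35% of all genes were past 2-fold higher. ID3 had 9.72 on the array titled C42B miR-410 and 7.99 on C42B miR-CON, and ID1 had 11.44 and 10.19 on the same arrays, so both were more than 2-fold higher under the miR-410 title. In the PC3 pair the differences were -0.30 for ID3 and -0.48 for ID1. As with SNAI2 and TWIST2, the signs differed between pairs by title.

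Genes that keep cells epithelial differed between lines in both directions, more of them lower. Of 13 measured epithelial regulators, 5 were lower on the arrays titled C42B, 2 were higher and 6 did not pass, with a median difference of -1.73. Over all genes, 14.1% were called lower and 11.7% higher. ELF5, an ETS factor of glandular epithelium, was lower by a difference of -4.39 ± 0.19 (log2, SE), and EHF by one of -3.51 ± 0.86. On C42B miR-410 and C42B miR-CON, 19.4% and 14.9% of values were lower than ELF5, which is not known to be above background there. OVOL2, a repressor of ZEB1, had values of 5.13 and 6.00 in the C42B miR-410 and C42B miR-CON arrays, against 7.30 on each array titled PC3, and was lower too (-1.73 ± 0.30). GRHL2, another known repressor of ZEB1, had a difference of -3.89 ± 1.12 and narrowly missed the test (limma adjusted p = 0.055). KLF5 (3.65 ± 0.28) and FOXA2 (3.51 ± 0.24) were the 2 called higher.

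GRHL2, EHF and ESRP1 differed between constructs in the C42B pair, which enters the errors above. GRHL2 had 4.67 on the array titled C42B miR-410 and 8.36 on C42B miR-CON, while PC3 miR-410 and PC3 miR-CON had 10.28 and 10.54. ESRP1, which encodes an epithelial splicing regulator, had 6.39 on the array titled C42B miR-410, against 10.89 on C42B miR-CON, 10.59 on PC3 miR-410 and 10.46 on PC3 miR-CON, so that it was low on 1 array only. In the C42B pair, 6 of the 13 regulators were lower past 2-fold under the miR-410 title and 0 were higher, with a median difference of -0.87 and a lowest one of -4.50. Of all genes, 2.26% were lower and 1.35% higher past 2-fold in this pair. In the PC3 pair, 0 of the 13 regulators were past 2-fold and their median was -0.01. The medians of all genes were 0.01 and -0.01 in these pairs. ZEB1 itself differed by 0.39 in the C42B pair.

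Epithelial genes known or proposed as targets of EMT factors were also called lower more often than higher. Of 34 measured, 13 were lower on the arrays titled C42B, 2 were higher and 19 did not pass, with a median difference of -0.98. The shares over all genes were 14.1% lower and 11.7% higher. RAB25, a vesicle traffic gene, had the lowest difference (-4.35 ± 0.85, log2, SE), followed by CDH1 (-3.98 ± 1.01) and PRSS8, a membrane serine protease gene (-3.86 ± 0.21). CDH1 had 4.63 and 7.97 in the C42B miR-410 and C42B miR-CON arrays, against 10.29 and 10.27 on PC3 miR-410 and PC3 miR-CON. The 2 called higher were the claudin gene CLDN1 (4.09 ± 1.03) and the keratin gene KRT19 (3.33 ± 0.17). On PC3 miR-410 and PC3 miR-CON, 13.1% and 17.9% of values were lower than CLDN1, which is not known to be above background there. Between constructs in the C42B pair, 11 of 34 were lower past 2-fold under the miR-410 title and 0 were higher, led by EPCAM (-3.46), CLDN1 (-3.39) and CDH1 (-3.34). Of all genes, 2.26% were lower and 1.35% higher past 2-fold in that pair. In the PC3 pair, 0 of 34 passed 2-fold and CDH1 differed by 0.02.

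**Figure D4:**
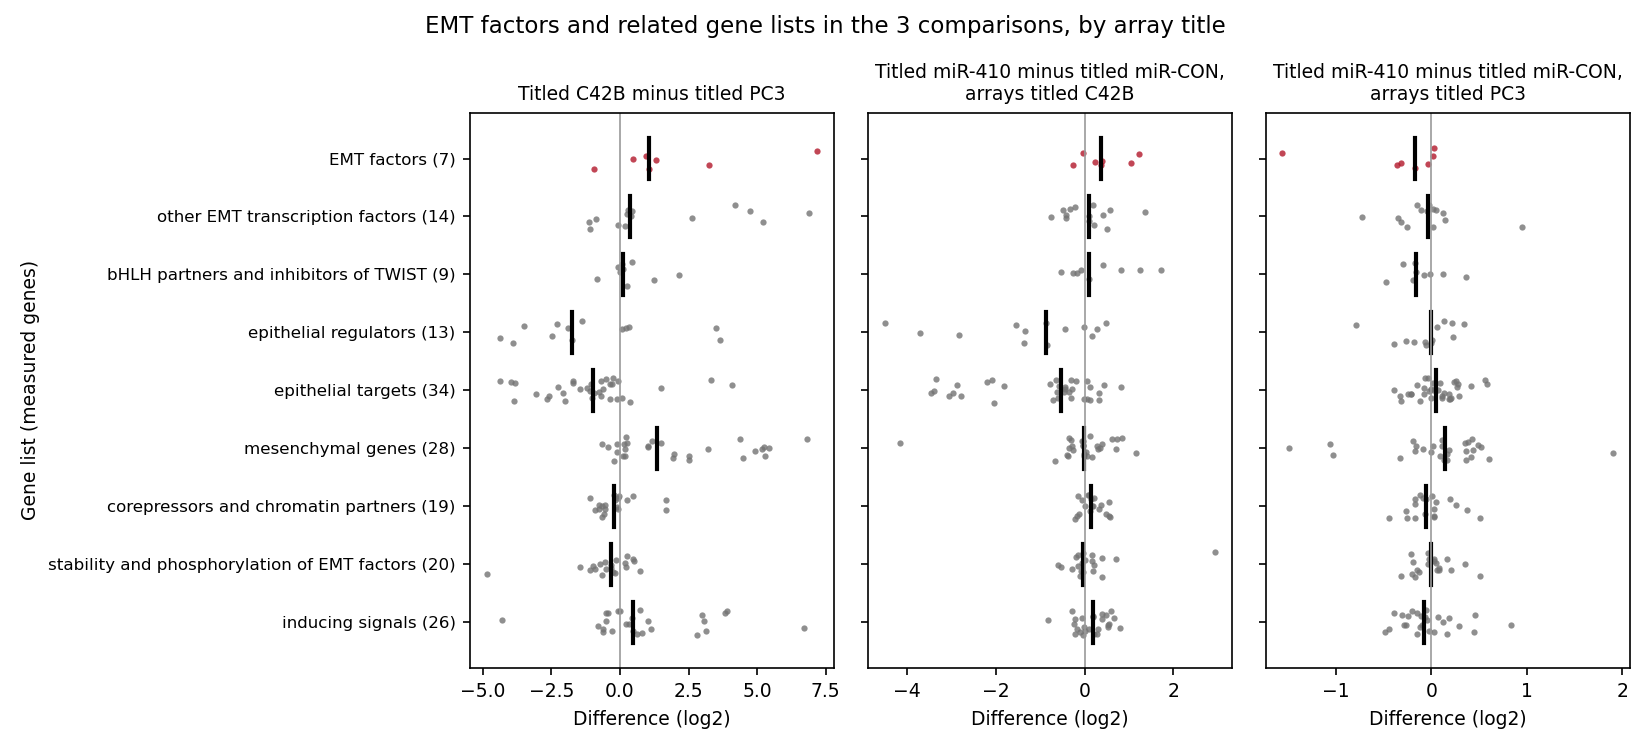
Log2 differences (horizontal axes) of each measured gene in the EMT factors (red) and 8 related gene lists (grey), between lines (left) and between constructs on the arrays titled C42B (middle) and PC3 (right). Black bars are list medians, which for epithelial regulators are -1.73, -0.87 and -0.01, and for mesenchymal genes are 1.33, -0.01 and 0.15.

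SNAI and ZEB proteins bind the E-box CACCTG, which reads CAGGTG on the other strand. Windows from 250 bases before to 50 bases after the start site were searched for either spelling in RefSeq's promoters (GRCh38.p14). CDH1, EPCAM, GRHL2, ESRP1, OVOL2, SNAI1 and SNAI2 had no promoter in the table used and were not searched. Of the 34 measured epithelial targets, 20 had a promoter in the table and 14 of these (70.0%) held the box, as did 4 of 8 epithelial regulators (50%) and 3 of 18 mesenchymal genes (16.7%). The LNCaP-lineage markers equalled the regulators, with 4 of 8 (50%), and 4 of 14 PC3 markers (28.6%) held it. Over all 27305 genes with a promoter, 24.1% held it. Of 4 EMT factors with a promoter in the table, ZEB1 alone held it, in 2 of its 7 windows. Of the 14 epithelial targets with the box, 8 were called lower on the arrays titled C42B, 0 higher and 6 neither way, and of the 6 without it 2 were called lower, 1 higher and 3 neither way. These genes were listed as known or proposed targets of EMT factors, so the share that holds the box is not independent of that choice. RAB25, AP1M2 and CLDN7 are shown, picked after their values were seen, as genes called lower on the arrays titled C42B whose promoters hold the box, beside ZEB1. The box is in capitals. The stretches are chr1:156061107-156061136 (plus strand) for RAB25, chr19:10587352-10587381 (minus strand) for AP1M2, chr17:7262596-7262625 (minus strand) for CLDN7 and chr10:31318348-31318377 (plus strand) for ZEB1.
RAB25: catctctccaccCACCTGggccccaggtct
AP1M2: gacagcgctgctCACCTGgccgcctcccct
CLDN7: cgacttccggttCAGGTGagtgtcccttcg
ZEB1: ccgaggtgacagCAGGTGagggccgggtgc

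AP1M2, which encodes a sorting adaptor subunit of epithelial cells, had 4.84 and 7.70 in the C42B miR-410 and C42B miR-CON arrays, against 10.18 and 10.00 on PC3 miR-410 and PC3 miR-CON. RAB25 had 3.03 and 5.81, against 8.98 and 8.57, and the claudin gene CLDN7 had 6.42 and 8.46, against 9.98 and 10.06, in the same orders. All 3 genes were lowest on the array titled C42B miR-410, as were PATJ and TJP3, which also held the box and were called lower. DSG2, DSP and CDS1, likewise with the box and called lower, were lowest on C42B miR-CON instead. Their values there were 8.42, 8.82 and 6.43, against 9.25, 8.93 and 6.76 on C42B miR-410. A match in these windows describes the sequence and not the binding of a factor.

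Mesenchymal genes called between lines were all higher on the arrays titled C42B, while their median lay near 0 between constructs. Of 28 measured, 15 were higher, 0 were lower and 13 did not pass between lines, with a median difference of 1.33. Over all genes, 11.7% were called higher and 14.1% lower. The highest of the 28 were the cadherin gene CDH11 (6.81 ± 0.16, log2, SE), TNC, a matrix glycoprotein gene (5.42 ± 0.22), and CDH2, which encodes N-cadherin (5.30 ± 0.35). On PC3 miR-410 and PC3 miR-CON, 20.1% and 18.3% of values were lower than CDH11, and 18.8% and 13.1% lower than TNC. Whether these genes were above background there is not known. VIM, which encodes the intermediate filament vimentin, had 11.54 and 11.15 in the C42B miR-410 and C42B miR-CON arrays, against 8.76 and 8.92 on PC3 miR-410 and PC3 miR-CON (2.51 ± 0.20). VIM, CAV1, CD44 and AXL, all called higher, are also on the list of PC3 markers, so the counts of these lists overlap. Between constructs on the arrays titled C42B, the median was -0.01, MMP14 was past 2-fold higher (1.16) and SPARC past 2-fold lower (-4.15). VIM and CDH2 differed there by 0.39 and 0.03.

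In the PC3 pair, 3 mesenchymal genes were lower past 2-fold under the miR-410 title, as SNAI2 was. Of all genes, 0.656% were lower and 0.441% higher past 2-fold there. CDH2 had 2.82 on the array titled PC3 miR-410 and 3.88 on PC3 miR-CON. On these arrays 4.73% and 16.7% of values were lower, and neither value is known to be above background. FN1, which encodes fibronectin, had 8.47 and 9.50 on the same arrays, and CAV1, which encodes caveolin-1, had 5.32 and 6.81. LOX, a collagen crosslinking enzyme gene, went the other way, with 7.35 on PC3 miR-410 and 5.45 on PC3 miR-CON. The median of the 28 genes was 0.15 in this pair.

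Corepressors and chromatin partners of the factors were called about as often as all genes. Of 19 measured corepressors and chromatin partners, 4 were lower and 2 higher in C42B arrays by title, against 14.1% and 11.7% of all genes, with a median difference of -0.21. Those lower were KMT5A, SUZ12, SETDB1 and CHD4, between -1.11 and -0.64. Those higher were AJUBA, a LIM protein that helps Snail recruit enzymes (1.69 ± 0.24), and the acetyltransferase gene KAT2B (1.69 ± 0.28). Between constructs, the differences of the 19 genes ran from -0.44 to 0.56 over both pairs. Of 20 measured genes for stability and phosphorylation of the factors, 6 were lower in C42B arrays by title and 0 higher. The shares of all genes were 14.1% lower and 11.7% higher. PRKD1, a kinase known to phosphorylate Snail, had the lowest difference (-4.86 ± 0.89). It was also the only one past 2-fold between constructs, with 6.80 on the array titled C42B miR-410 and 3.86 on C42B miR-CON, against 10.23 and 10.15 on PC3 miR-410 and PC3 miR-CON. On C42B miR-CON 15.8% of values were lower, and whether PRKD1 was above background there is not known.

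Of 26 measured genes of inducing signals, 9 were higher and 3 lower in C42B arrays by title, against 11.7% and 14.1% of all genes, with a median difference of 0.47. TGFBR2, a receptor of TGF-beta, had 10.46 and 9.86 in the C42B miR-410 and C42B miR-CON arrays, against 3.88 and 3.05 on PC3 miR-410 and PC3 miR-CON, a difference of 6.70 ± 0.34 (log2, SE). As for ZEB1, whether TGFBR2 was above background on the arrays titled PC3 is not known. The ligand gene TGFB1 (3.90 ± 0.20) and the YAP-related coactivator gene WWTR1 (3.82 ± 0.32) were next. STAT3, a cytokine signal transducer whose gene is lost in PC3 cells, was the lowest (-4.29 ± 0.19), with 4.19 and 4.36 in the C42B miR-410 and C42B miR-CON arrays and 8.42 and 8.71 on PC3 miR-410 and PC3 miR-CON. SMAD2 and SMAD7, an effector and an inhibitor of TGF-beta signaling, were lower by differences of -0.63 ± 0.17 and -0.60 ± 0.16.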

How the data were processed

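Expression in C42B and PC3 cells was profiled with 4 Clariom S arrays. RMA in Partek was run by the authors, and their log2 values, as deposited, were used here. The submitters' notes name Partek and RMA, and the genome build is not given in the sources used here. Scanner files were not analysed here. Of 21448 probe sets, 17709 had 1 symbol in the platform's table, 0 had several and 3739 were unnamed here. The 17687 symbols all stand in RefSeq's table, and probe sets were averaged for 20 genes. The number of arrays limits the precision.

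Groups were taken from array titles. Lines were compared with limma 3.58.1 in R 4.3.3 (lmFit, eBayes, no covariate, 2 residual degrees of freedom), with Benjamini-Hochberg adjustment over all genes at 0.05, and the script was tested on simulated data. Within a pair, genes were counted at 2-fold. Named genes were the 7 factors, CDH1, VIM, CDH2, GRHL2, ESRP1, OVOL2, PRKD1, up to 3 genes at each end of each list, and the 3 nearest profiles of factors spanning 1 or more (log2). Other genes were named after their values were seen. The members and lists were chosen with earlier results of these data known. Alternatives were a construct term, a trended prior, quantile or loess (span 0.4) normalization, median centring, dim genes left out, the brightest probe set, all probe sets, other folds and leaving out each array. Python 3.11.15, NumPy 2.4.6, pandas 2.3.3 and Matplotlib 3.10.9 were used.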

Additional observations from a re-analysis of the deposited data

Results flagged for a closer look

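The construct difference (array titled miR-410 minus array titled miR-CON) had opposite signs in the pairs for 5 of the 7 factors, and these differences between pairs were not tested, since there is 1 array per construct. The pair titled C42B minus the pair titled PC3 gave 2.79 for SNAI2 (1.23 against -1.56), 1.40 for TWIST2 (1.04 against -0.36), 0.67 for ZEB2 (0.36 against -0.31), 0.43 for ZEB1 (0.39 against -0.04) and -0.29 for SNAI1 (-0.26 against 0.03). With the construct taken from the genotype and description fields, each of the 5 has the same sign in both pairs. With the direction of the study's own gene list, which runs against the titles in both pairs, the 5 signs stay opposite.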

How the results depend on the processing

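With 1 array per construct and 2 per line, precision is limited by the number of arrays, and signal over background was not measured. The labels give no replicate numbers to pair arrays by. With construct by title as a term, 4 factors were called higher and 1 lower, as without it. Between lines, ZEB1 and SNAI2 kept their calls in all 12 alternatives (adjusted p at most 0.00034 and 0.040), TWIST1 in 11, SNAI1 in 10 and ZEB2 in 9, and no factor changed direction. PRRX1 passed in 0 of 11. TWIST2 passed in 3 of 11, with a construct term by the genotype field (adjusted p = 0.015), with a trended prior (0.042) and without the array titled C42B miR-CON (0.0061). PRRX1 and TWIST2 had no value between lines where dim genes were left out. A line with 1 array left was assumed to vary like the other line. Leaving out each array gave 1189 to 2223 genes higher (2078 with all arrays) and 1071 to 2817 lower (2488) on the arrays titled C42B, and among the factors 2 to 5 higher (4) and 0 to 1 lower (1). In the pair titled C42B, 1202 genes were higher and 1283 lower at 1.5-fold, and 33 higher and 176 lower at 3-fold, where 0 factors were higher. Without dim genes, 249 were lower at 2-fold and 1 factor, SNAI2, was higher, since TWIST2 was left out as dim. In the pair titled PC3, 517 were higher and 641 lower at 1.5-fold, and 19 higher and 36 lower at 3-fold, where 0 factors were lower. Without dim genes, 33 were higher and 44 lower at 2-fold. With the construct by the genotype field, 1 factor was higher and 0 were lower, and the differences there turned to 1.56 for SNAI2, 0.36 for TWIST2, 0.31 for ZEB2, 0.17 for TWIST1, 0.039 for ZEB1, -0.021 for PRRX1 and -0.030 for SNAI1.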

Other observations

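The probe set of MIR205, the gene of miR-205, was chosen after its values were seen. It had 6.06 and 8.01 on the arrays titled C42B miR-410 and C42B miR-CON, and 5.71 and 5.33 on PC3 miR-410 and PC3 miR-CON. MIR205 was thus highest under the title C42B miR-CON, and its construct difference of -1.95 lay on the same side as those of GRHL2 and ESRP1 in that pair. What the probe set detects, precursor or host transcript, was not tested.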
